A study of Mus musculus with 12 samples.

Results

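The respiratory chain and the ATP synthase were followed in whole-lung RNA through 87 nuclear genes, of 18194 genes with a probe set of their own. All genes whose annotated symbol starts with Nduf, Uqcr, Atp5 or Cox4 to Cox7, or is Sdha, Sdhb, Sdhc or Sdhd, were taken, and each was read from its brightest probe set over the 12 arrays. They comprise 42 genes of complex I (6 core subunits, 28 accessory subunits and 8 assembly factors), 4 of complex II, 8 of complex III, 16 of complex IV (10 widely expressed subunits and 6 isoforms restricted to certain tissues) and 17 of complex V. The rule is written on symbols alone, although the set was proposed with earlier results of these data known. Ndufa4 and Ndufa4l2 were placed with complex IV, where the Ndufa4 protein is now assigned. The array names 8 further matching genes only by probe sets that several genes share, among them Ndufs6 and Ndufa11, and these were not analysed here, nor was Cox7b.

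Total RNA came from lungs of C57BL/6 mice perfused with PBS, with 3 Affymetrix arrays in each of 4 groups. FIZZ2 knockout mice after bleomycin, FIZZ2 knockout mice after saline, wild type mice after bleomycin and wild type mice after saline were compared, each given the agent by endotracheal injection and sampled at day 21. Bleomycin, an antitumour agent that cuts DNA, is used to scar the mouse lung, and FIZZ2 (RELM-beta, gene Retnlb) is a secreted relative of resistin. Age, sex, dose, the knockout allele and whether replicates are separate animals are not given in the labels used here. The p-values therefore reflect only the spread of the sampled arrays within groups. That spread was pooled over the 4 groups and moderated over genes by limma, so it is not the spread of the compared groups alone.

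The respiratory chain passes electrons from NADH (complex I) and succinate (complex II) through ubiquinone to complex III, then through cytochrome c to complex IV, which reduces oxygen. Complexes I, III and IV pump protons across the inner mitochondrial membrane, and complex V lets them flow back to make ATP. Most subunits are encoded in the nucleus and made in all cells, but complex IV has alternative subunits used in particular tissues. Cox6a2 and Cox7a1 are the forms of heart and skeletal muscle (Cox7a1 also of brown fat), while Cox6a1 and Cox7a2 are their counterparts in most other tissues. Lung cells use the chain for surfactant synthesis, ciliary beating and ion transport.

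The promoters of the isoform pair Cox7a1 and Cox7a2, and of Cox6a1, are shown because Cox7a1 and Cox6a1 were among the complex IV genes called between groups. Each is the 250 bases before the annotated start in RefSeq (GRCm38.p6), written 5′ to 3′ along the gene. Cox7a1 lies at chr7:30183921-30184170 on the plus strand, Cox7a2 at chr9:79759854-79760103 on the minus strand and Cox6a1 at chr5:115348959-115349208 on the minus strand. Capitals mark the NRF-1 motif.
Cox7a1: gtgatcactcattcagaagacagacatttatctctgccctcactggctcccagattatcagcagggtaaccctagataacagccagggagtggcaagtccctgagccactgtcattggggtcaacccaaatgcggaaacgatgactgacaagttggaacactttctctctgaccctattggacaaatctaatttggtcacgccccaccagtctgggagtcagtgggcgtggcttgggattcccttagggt
Cox7a2: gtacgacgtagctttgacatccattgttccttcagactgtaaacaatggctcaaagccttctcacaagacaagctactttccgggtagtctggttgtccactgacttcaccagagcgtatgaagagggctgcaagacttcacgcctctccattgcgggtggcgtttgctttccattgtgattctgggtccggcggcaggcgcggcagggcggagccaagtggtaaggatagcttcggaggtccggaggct
Cox6a1: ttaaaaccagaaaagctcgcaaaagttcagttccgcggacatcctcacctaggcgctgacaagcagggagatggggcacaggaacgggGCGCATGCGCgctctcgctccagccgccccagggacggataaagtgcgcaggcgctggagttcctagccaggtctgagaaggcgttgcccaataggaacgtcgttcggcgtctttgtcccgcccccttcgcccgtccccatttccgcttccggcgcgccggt
Matched by gene identifier, 72 of the 87 members had a promoter in the table. Atp5a1, Atp5mpl, Cox4i1, Cox4i2, Cox6a2, Cox6c, Ndufa2, Ndufa4l2, Ndufaf6, Ndufb9, Ndufs1, Sdhc, Uqcrb, Uqcrc2 and Uqcrq were not matched. Both strands of the 250 bases before the first listed start were searched. The motif GCGCATGCG of NRF-1, a regulator of respiratory genes, stood in 6 of 72 member promoters (8.33%; Atp5g2, Atp5k, Atp5l, Cox6a1, Ndufa8 and Ndufaf4), against 1.49% of 27025 promoters of all genes. In Cox6a1 it matched on both strands, at bases -162 to -154 and -161 to -153 from the start. The ETS motif ACTTCCGG, read by GABP, was in 3 member promoters (4.17%; Atp5h, Uqcr11 and Uqcrh), against 2.93% of all promoters. The YY1 motif AAGATGGC was in 0 of the 72, against 1.59% of all, and CTAAAAATA, a form of the muscle motif of MEF2, in 0, against 0.451% of all. The E-box CAGCTG, read by muscle regulators, was in 5 (6.94%), against 12.8% of all. The Cox7a1 and Cox7a2 windows hold none of the 5 motifs. No overlap between different motifs was removed from these counts, and a match describes the letters only.

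Array medians lay between 5.58 and 5.68 on the log2 scale of the deposited values, and arrays of the same group correlated at 0.988 to 0.997 across probe sets (12 pairs). Retnlb, the targeted gene, was dim on all arrays: 3.67, 3.72 and 3.49 in knockout bleomycin lungs, 3.69, 3.54 and 3.83 in knockout saline lungs, 4.13, 3.8 and 3.98 in wild type bleomycin lungs and 3.65, 3.84 and 3.57 in wild type saline lungs. Knockout and wild type saline arrays overlap. After bleomycin the knockout arrays lay below the wild type arrays, but the difference of -0.35 was not called (limma, adjusted p = 0.0502). At so low a signal, this level does not check the genotype labels. The lung markers Sftpc and Scgb1a1 were bright, with means over the 12 arrays of 14.17 and 14.10. Within groups, the members shifted together on some arrays. Of the 3 knockout bleomycin arrays, replicate 3 held the highest value for 57 of 87 members (65.5%, against 30.5% of all genes) and replicate 2 the lowest for 60 (69%, against 37.6%). Of the wild type saline arrays, replicate 2 held the highest value for 67 members (77%, against 50% of all genes).

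The mean log2 value over the 12 arrays was under 7 for 8 members (Cox7a1, Cox7b2, Cox7c, Ndufaf2, Ndufaf5, Ndufaf6, Ndufb1 and Ndufb4) and under 5 for Cox7b2 and Ndufb4, whose probe sets gave so little signal that a change in them cannot be read well. Each probe set has its own brightness, so levels are compared only between groups.

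In wild type lungs, bleomycin changed few respiratory chain genes, and most changes were small. After bleomycin, 7 members rose and 8 fell (limma, Benjamini-Hochberg adjusted p under 0.05 over all 18194 genes), that is 15 of 87 (17.2%). Over all genes, 27.7% were called, 13.3% as higher and 14.4% as lower. The median log2 difference of the members was 0.0073, against -0.043 for all genes. For 78 of the 87 members (89.7%) the 95% interval of the difference stayed within 0.5 log2 units of 0, which held for 67% of all genes. The members were brighter than most genes, with a median percentile of 94.4 for their mean value. Their median SE was also smaller, at 0.0853 against 0.1006. Here and below, the shares of members and of all genes are therefore not compared at like brightness, and the part of brightness was not tested. The largest falls belonged to the muscle isoforms Cox7a1 and Cox6a2, and no other member moved by more than 0.5. The arrays of the 2 groups did not overlap for 26 members (29.9%), against 40% of all genes.

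**Figure D1:**
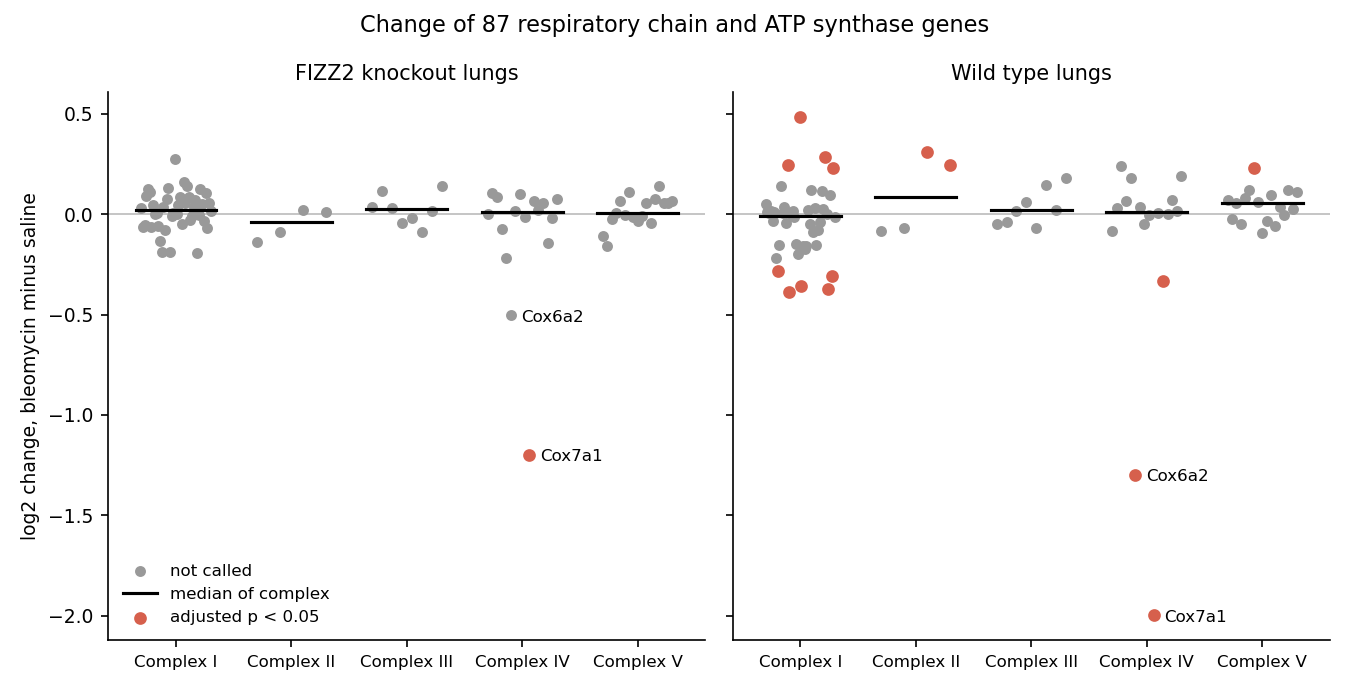
Log2 change after bleomycin (bleomycin minus saline, y axis) of the 87 members by complex, in FIZZ2 knockout lungs (left) and wild type lungs (right); each point is 1 gene, red where the adjusted p was under 0.05, and a black line is the median of a complex. Medians lie near 0 in both genotypes and the muscle isoforms Cox7a1 and Cox6a2 stand below the rest.

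Of the 42 genes of complex I, the NADH dehydrogenase, 4 rose and 5 fell (21.4% called, against 27.7% of all genes). Among the core subunits, which carry the flavin and the iron-sulphur clusters, Ndufv2 rose and Ndufs7 and Ndufv1 fell. Ndufs7, which holds the cluster that hands electrons to ubiquinone, had log2 values of 10.21, 10.20 and 10.08 in wild type bleomycin lungs, against 10.40, 10.87 and 10.34 in wild type saline lungs. The groups do not overlap, and saline replicate 2 stands well above the other saline arrays. The difference was -0.37 ± 0.12 (SE, limma, adjusted p = 0.0309), and it was -0.21 without saline replicate 2 and no longer called (adjusted p up to 0.0998 over the alternatives). Its second probe set gave -0.40 and was called (limma, adjusted p = 0.00279 over all probe sets).
Ndufv1, the flavin-binding subunit that takes electrons from NADH, had 9.87, 9.77 and 9.90 in wild type bleomycin lungs, against 10.07, 10.36 and 10.03 in wild type saline lungs, a difference of -0.31 ± 0.10 (limma, adjusted p = 0.0293). Saline replicate 2 was again the highest, and the difference was -0.20 and not called without it. Ndufs7 and Ndufv1 each lost their call under 5 of 19 alternative settings. Ndufv2, the partner of Ndufv1 in the same module, had 10.92, 10.89 and 10.88 after bleomycin, against 10.60, 10.65 and 10.74 after saline, a difference of +0.23 ± 0.08 (adjusted p = 0.0430). All bleomycin arrays lay above all saline arrays, but the call was lost under 13 of 19 alternative settings. Its other probe sets gave +0.14 and +0.04, neither called, and the mean over all of them +0.14. The other core subunits Ndufs1 (+0.12), Ndufs3 (+0.03) and Ndufs8 (+0.09) did not pass (limma, adjusted p = 0.371, 0.824 and 0.483). Ndufs8 was called with array weights (+0.19) and without saline replicate 2 (+0.21).

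Accessory subunits surround the core and stabilise it. Of 28, Ndufs4 and Ndufb1 rose, Ndufb10 and Ndufa6 fell and 24 did not pass. Ndufs4, a subunit whose loss causes a Leigh-like disease in mice and people, had 9.08, 9.03 and 9.07 in wild type bleomycin lungs and 8.75, 8.80 and 8.77 in wild type saline lungs. The 2 groups are narrow and clearly apart, with a difference of +0.29 ± 0.07 (limma, adjusted p = 0.00957). This rests on 1 probe set: the other 3, all dimmer, gave differences of -0.16, +0.16 and -0.19, none of them called, and the mean over the 4 gave +0.02 (adjusted p = 0.841).
Ndufb1, a small subunit of the membrane arm, had 6.75, 6.35 and 6.63 after bleomycin, against 5.92, 6.33 and 6.03 after saline. The lowest bleomycin array was only just above the highest saline array, and the difference of +0.48 ± 0.12 (adjusted p = 0.00733) was the largest rise among the members. Ndufb10, another membrane arm subunit, had 9.59, 9.54 and 9.45 after bleomycin, against 9.83, 10.12 and 9.70 after saline (-0.36 ± 0.10, adjusted p = 0.0148). Ndufa6, of the peripheral arm, differed by -0.28 ± 0.10 (adjusted p = 0.0486) and by -0.17, not called, without saline replicate 2. The call was lost under 13 of 19 alternative settings for Ndufa6 and under 2 for Ndufb10.

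Assembly factors help to build complex I and are not part of the finished enzyme. Ndufaf3, which acts early in building the peripheral arm, had 8.58, 8.68 and 8.77 in wild type bleomycin lungs, against 9.0, 9.18 and 9.03 in wild type saline lungs. Its difference of -0.39 ± 0.09 (limma, adjusted p = 0.00559) was the largest fall in complex I, with no overlap of the arrays. Ndufaf2, which binds a late intermediate, had 6.75, 6.65 and 6.48 after bleomycin and 6.42, 6.37 and 6.36 after saline (+0.24 ± 0.09, adjusted p = 0.0474), and its call was lost under 14 of 19 alternative settings. The other 6 factors did not pass.

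Complex II, succinate dehydrogenase, belongs to both the chain and the citric acid cycle. Its membrane anchors Sdhc and Sdhd rose and its catalytic subunits Sdha and Sdhb did not pass. Sdhc had 10.17, 10.05 and 10.30 in wild type bleomycin lungs, against 9.86, 9.77 and 9.95 in wild type saline lungs, a difference of +0.31 ± 0.08 (limma, adjusted p = 0.0113). Sdhd had 10.20, 10.28 and 10.35 after bleomycin, against 9.99, 9.95 and 10.15 after saline, a difference of +0.24 ± 0.08 (adjusted p = 0.0299). Neither pair of groups overlaps. The call was lost under 3 of 19 alternative settings for Sdhc and under 5 for Sdhd. Sdha, the flavoprotein, differed by -0.08 (95% interval -0.25 to 0.09) and Sdhb, the iron-sulphur subunit, by -0.07 (-0.28 to 0.14). The other probe sets of Sdhc and Sdhd gave +0.12 and +0.17, neither called. Those of Sdha gave -0.21, -0.29 and -0.18, none called. With the mean of all its probe sets Sdha was called as lower (-0.19, limma, adjusted p = 0.0239).

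None of the 8 complex III genes passed in wild type lungs at the adjusted threshold, and 1 had an unadjusted limma p under 0.05. The core proteins Uqcrc1 (+0.06, 95% interval -0.15 to 0.28) and Uqcrc2 (-0.07, -0.23 to 0.10) and the Rieske iron-sulphur protein Uqcrfs1 (+0.14, -0.04 to 0.33) are examples. Uqcrq, a small subunit, had 10.41, 10.37 and 10.33 after bleomycin, against 10.16, 10.31 and 10.09 after saline. Its arrays do not overlap, but the difference of +0.18 was not called (limma, adjusted p = 0.121). With array weights (+0.19, limma, adjusted p = 0.0296) or without saline replicate 2 (+0.24, adjusted p = 0.0495) Uqcrq was called.

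In complex V, Atp5g2 rose and the other 16 genes did not pass. Atp5g2, one of the genes that encode the same c subunit of the proton-driven ring, had 10.96, 10.91 and 11.05 in wild type bleomycin lungs, against 10.69, 10.69 and 10.85 in wild type saline lungs (+0.23 ± 0.08, limma, adjusted p = 0.0449). Its call was lost under 12 of 19 alternative settings. Atp5g1 and Atp5g3, which encode the same mature protein, differed by +0.12 and +0.06. Read from their brightest probe sets, the F1 subunits, which hold and drive the catalytic sites, all stayed close to 0. Atp5a1 (alpha) was at +0.07, Atp5b (beta) at -0.02, Atp5c1 (gamma) at +0.06, Atp5d (delta) at -0.05 and Atp5e (epsilon) at +0.08. All 17 intervals of the brightest probe sets in complex V lay within 0.5 log2 units of 0. A dimmer second probe set of Atp5c1 (mean 5.93) gave -0.34 in wild type lungs, not called. In knockout lungs it gave -0.59 (limma, adjusted p = 0.0376 over all probe sets). The second probe set of Atp5pb, a stalk subunit, gave +0.34 in wild type lungs (limma, adjusted p = 0.015 over all probe sets).

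**Figure D2:**
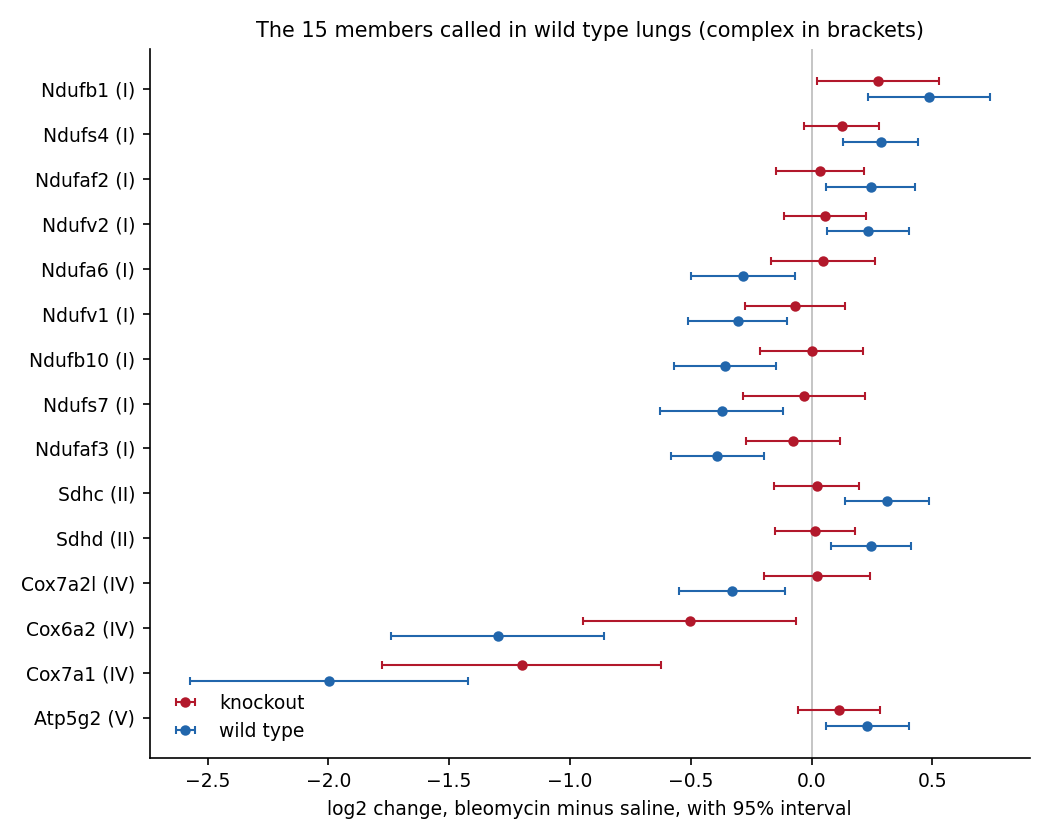
Log2 change after bleomycin (x axis, points with 95% intervals) of the 15 members called in wild type lungs, in knockout and wild type lungs. The fall of Cox7a1 and Cox6a2 is the largest, and the other changes lie within about 0.5 of 0.

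Complex IV, cytochrome c oxidase, held the largest changes. Cox7a1, Cox6a2 and Cox7a2l fell in wild type lungs, no member was called as higher at the main settings and 13 of 16 did not pass. Cox7a1 had log2 values of 4.80, 4.57 and 5.16 in wild type bleomycin lungs, against 6.68, 6.95 and 6.90 in wild type saline lungs. The groups lie far apart, with a difference of -2.0 ± 0.27, or 0.25 times the saline level (limma, adjusted p = 0.000127). Cox6a2 had 7.34, 7.77 and 7.82 after bleomycin, against 8.66, 9.0 and 9.15 after saline, a difference of -1.30 ± 0.20, or 0.406 times the saline level (adjusted p = 0.00043). Its second probe set gave -1.38. Both calls held under all 19 alternative settings.

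Their counterparts in other tissues did not follow. Cox7a2 had 12.24, 12.25 and 12.19 in wild type bleomycin lungs, against 12.15, 12.32 and 12.18 in wild type saline lungs, and its difference of +0.01 had a 95% interval of -0.15 to 0.16. Cox6a1 had 12.97, 12.72 and 12.77 after bleomycin, against 12.66, 12.65 and 12.61 after saline. All its bleomycin arrays were higher, but the difference of +0.18 ± 0.08 was not called (limma, adjusted p = 0.107).
Cox7a2l, a protein related to Cox7a2, had 11.10, 11.15 and 10.98 after bleomycin and 11.30, 11.64 and 11.29 after saline (-0.33 ± 0.10, adjusted p = 0.0277). Its other probe sets gave -0.28 and -0.37, both called (limma, adjusted p = 0.0297 and 0.0254 over all probe sets). The Cox7a2l difference was -0.21 and not called without saline replicate 2. The Cox7a2l call was lost under 4 of 19 alternative settings. Cox5a, a subunit on the matrix side of the complex, had 11.49, 11.55 and 11.47 after bleomycin and 11.26, 11.44 and 11.10 after saline (+0.24), and missed the threshold (adjusted p = 0.056). Its other probe sets gave +0.28 (limma, adjusted p = 0.0175 over all probe sets) and +0.16, not called. Cox5a was called as higher with the mean of all probe sets, a minimum mean of 5, or trend and robust. It was also called with array weights or without saline replicate 2 (limma, adjusted p = 0.00661 to 0.044 over these settings). Of the remaining widely expressed subunits, the differences were -0.08 for Cox4i1, +0.06 for Cox5b, +0.04 for Cox6b1, 0.00 for Cox6c, +0.07 for Cox7c and +0.02 for Ndufa4. None of them passed.
Of the other restricted isoforms, Cox4i2, which lung and low-oxygen tissue use, differed by +0.03 (-0.23 to 0.29), Ndufa4l2, an oxygen-regulated relative of Ndufa4, by +0.19 (-0.01 to 0.39) and Cox6b2, a testis form, by -0.05 (-0.27 to 0.18). Cox7b2, a dim member, differed by 0.00.

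**Figure D3:**
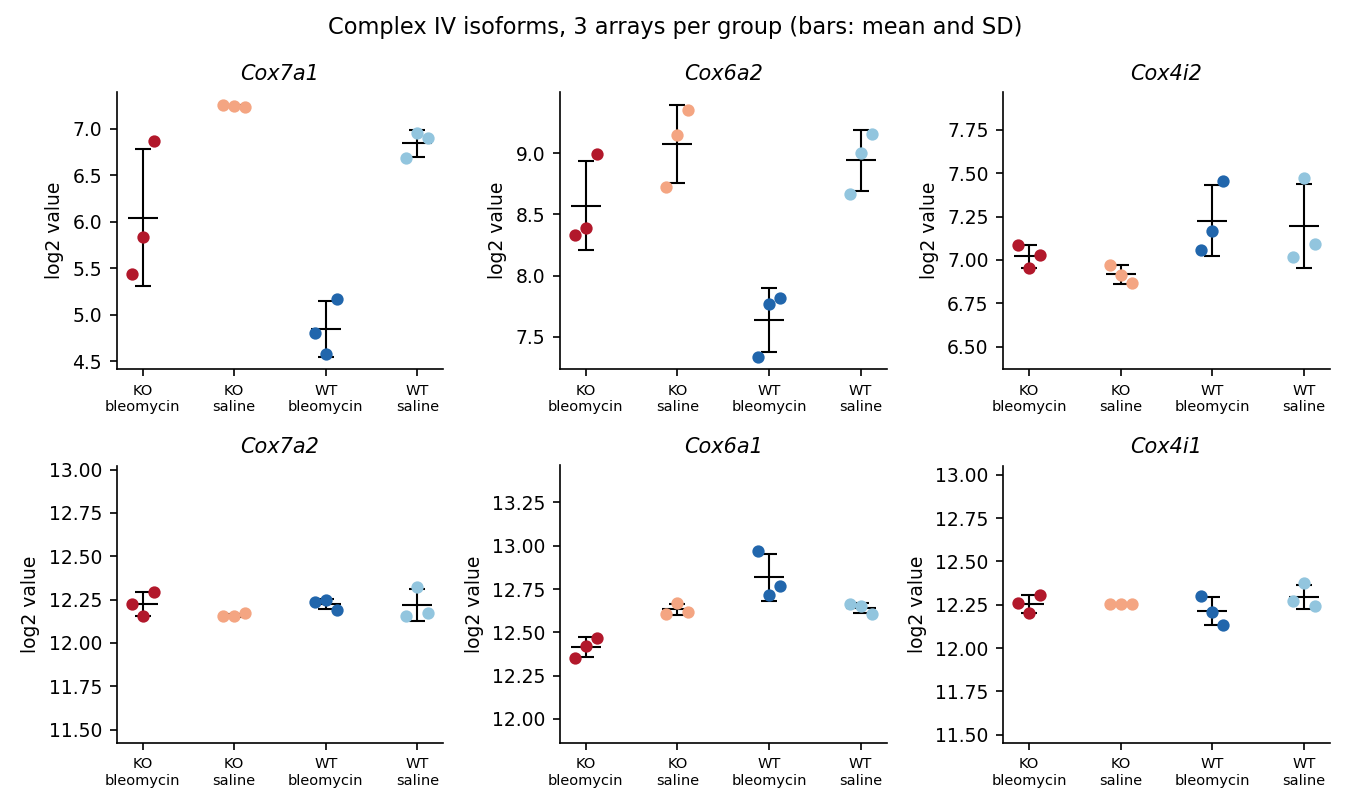
Log2 values (y axis, own range in each panel) of 6 complex IV isoforms on each of 3 arrays per group, with mean and SD bars. Cox7a1 and Cox6a2 are lowest in wild type bleomycin lungs, while Cox7a2, Cox4i1 and Cox4i2 overlap between bleomycin and saline lungs of both genotypes.

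In knockout lungs, 0 members rose and 1 fell after bleomycin, Cox7a1 (1.15% of members, against 3.26% of all genes, 1.98% as higher and 1.29% as lower). Cox7a1 had 5.44, 5.83 and 6.86 in knockout bleomycin lungs, against 7.26, 7.24 and 7.23 in knockout saline lungs. The bleomycin arrays are widely spread and the saline arrays very close, and the difference was -1.2 ± 0.27, or 0.435 times the saline level (limma, adjusted p = 0.0298). The call was lost without knockout bleomycin replicate 1 (-0.90) or 2 (-1.09) and without any 1 of the knockout saline arrays. Cox6a2 had 8.33, 8.39 and 8.99 after bleomycin, against 8.73, 9.15 and 9.35 after saline. These groups overlap, and the difference of -0.50 ± 0.20 did not pass (adjusted p = 0.209).

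The small changes seen in wild type lungs were not called in knockout lungs. The differences in knockout lungs were +0.27 for Ndufb1, +0.12 for Ndufs4, +0.06 for Ndufv2 and +0.03 for Ndufaf2. They were -0.03 for Ndufs7, -0.07 for Ndufv1, 0.00 for Ndufb10, +0.05 for Ndufa6 and -0.08 for Ndufaf3. In the other complexes they were +0.02 for Sdhc, +0.01 for Sdhd, +0.02 for Cox7a2l and +0.11 for Atp5g2. Cox6a1 had 12.35, 12.42 and 12.47 in knockout bleomycin lungs, against 12.61, 12.67 and 12.62 in knockout saline lungs. All its bleomycin arrays were lower, but the difference of -0.22 ± 0.08 was not called (limma, adjusted p = 0.156).
The median log2 difference of the members in knockout lungs was 0.0162, against 0.0136 for all genes. For 84 of 87 members (96.6%) the 95% interval stayed within 0.5 of 0, against 82.1% of all genes. The arrays did not overlap for 13 members (14.9%), against 27% of all genes.

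Whether the response to bleomycin depended on genotype was tested as the difference between the responses, knockout minus wild type. It passed for 0 of 87 members (limma), against 5.02% of all genes (2.03% higher and 3% lower), and 8 members had an unadjusted p under 0.05. The difference between responses was -0.40 ± 0.11 for Cox6a1 (adjusted p = 0.0565; +0.03 from its second probe set, adjusted p = 0.911 over all probe sets), +0.79 ± 0.29 for Cox6a2 (adjusted p = 0.131) and +0.80 ± 0.38 for Cox7a1 (adjusted p = 0.239). For Ndufb10 it was +0.36 and for Sdhc -0.29 (adjusted p = 0.154 and 0.161). A call in wild type and none in knockout lungs is therefore not shown to be a difference for these genes.

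After saline, 0 members differed between knockout and wild type lungs (limma), against 0.489% of all genes (0.297% higher and 0.192% lower), and 6 had an unadjusted p under 0.05. The arrays did not overlap for 13 members (14.9%), against 16.7% of all genes. Ndufs1, the largest core subunit of complex I, had 9.47, 9.55 and 9.39 in knockout saline lungs, against 9.20, 9.05 and 9.34 in wild type saline lungs. The groups are just apart, with a difference of +0.27 ± 0.09 that did not pass (adjusted p = 0.290). Cox7a1 differed by +0.40 and Cox6a2 by +0.14, and neither passed (adjusted p = 0.657 and 0.865).

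After bleomycin, Cox7a1 and Cox6a2 were higher and Cox6a1 was lower in knockout than in wild type lungs (3 of 87 members, 3.45%, against 15.4% of all genes, 7.52% higher and 7.89% lower). The comparison uses the same bleomycin arrays as the responses above. Cox7a1 had 5.44, 5.83 and 6.86 in knockout bleomycin lungs, against 4.80, 4.57 and 5.16 in wild type bleomycin lungs (+1.2 ± 0.27, limma, adjusted p = 0.00896). Knockout bleomycin replicate 3 is far above the others, and without it the difference was +0.79 and still called (adjusted p = 0.00754), while with only the compared groups in the fit the call was lost (adjusted p = 0.0502). Cox6a2 had 8.33, 8.39 and 8.99, against 7.34, 7.77 and 7.82 (+0.93 ± 0.20, adjusted p = 0.00832). All knockout arrays lay above all wild type arrays for both genes.
Cox6a1 had 12.35, 12.42 and 12.47 in knockout bleomycin lungs, against 12.97, 12.72 and 12.77 in wild type bleomycin lungs. All knockout arrays were lower, and the difference was -0.40 ± 0.08, or 0.756 times the wild type level (limma, adjusted p = 0.00413). Its call held under all 19 alternative settings, with -0.24 as the mean of its probe sets, but the second probe set alone gave -0.08 and did not pass (adjusted p = 0.550 over all probe sets). The paired form Cox7a2 differed by 0.00 (95% interval -0.15 to 0.16). Ndufb1 (-0.36) and Ndufb10 (+0.26) did not pass (adjusted p = 0.0519 and 0.0891). Ndufs7 did not pass either (+0.24), but its second probe set gave +0.29 (limma, adjusted p = 0.0315 over all probe sets). The arrays did not overlap for 20 members (23%), against 33.3% of all genes.

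Averaged over genotypes, 7 members were called after bleomycin, with Atp5g2, Ndufb1, Ndufs4 and Sdhc higher and Cox6a2, Cox7a1 and Ndufaf3 lower (limma; 27.1% of all genes, 13.4% higher and 13.7% lower). The call was lost under 12 of 18 alternative settings for Sdhc, under 9 for Atp5g2 and under 1, the mean of all probe sets (+0.05, adjusted p = 0.579), for Ndufs4. Averaged over treatments, Cox6a2 and Cox7a1 were higher and Cox6a1 was lower in knockout lungs (8.96% of all genes, 4.03% higher and 4.93% lower), and the call was lost under 10 of 18 settings for Cox6a1 and under 7 for Cox6a2. These averages share all arrays with the comparisons above.

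The mean over the members of a complex was computed on each array, and its differences are given without a test. After bleomycin, the complex I mean differed by +0.0177 in knockout and -0.0351 in wild type lungs, beside group SDs of up to 0.112. Complex II differed by -0.0482 in knockout and +0.101 in wild type lungs (SD up to 0.0813). Complex III differed by +0.0234 in knockout and +0.0338 in wild type lungs (SD up to 0.0906), and complex V by +0.0140 in knockout and +0.0443 in wild type lungs (SD up to 0.0945). Complex IV had the lowest values, with -0.102 in knockout and -0.183 in wild type lungs (SD up to 0.102). Without Cox6a2 and Cox7a1 the remaining 14 genes of complex IV differed by +0.0048 in knockout and +0.0267 in wild type lungs. These 2 isoforms had the largest falls in both genotypes, so leaving them out was bound to raise the mean. The values describe the other 14 genes only.

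**Figure D4:**
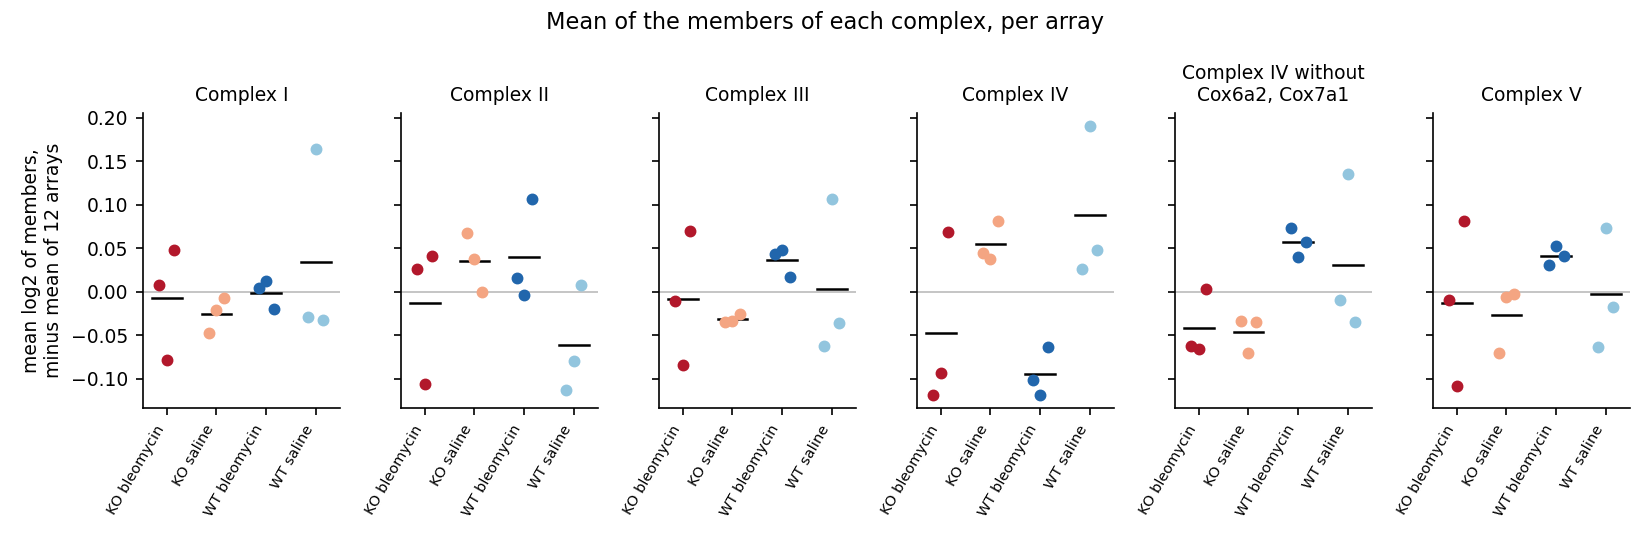
Mean log2 value of the members of each complex on each array, relative to its mean over the 12 arrays (y axis), by group, with complex IV also without Cox6a2 and Cox7a1; points are arrays and lines are group means. The groups overlap in most panels, and complex IV is not lower after bleomycin once the muscle isoforms, its largest falls, are left out.

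Markers of heart muscle moved with these isoforms. Of 12 cardiac markers, 1 (Ryr2) fell in knockout lungs, with a median difference of -1.22 over the list, and all 12 fell in wild type lungs, with a median of -1.91 (limma). Over all genes, 1.29% fell in knockout and 14.4% in wild type lungs. The difference between responses was called for 0 of the 12 markers. The defining markers Myh6, the atrial and adult ventricular myosin of mice, and Myl7, an atrial light chain, differed by -1.42 and -1.50, not called, in knockout lungs (adjusted p = 0.101 and 0.0921), and by -2.12 and -2.18 in wild type lungs (adjusted p = 0.00277 and 0.00275). The log2 of the summed signal of the 12 markers was 11.20, 12.19 and 13.26 in knockout bleomycin lungs, 12.98 to 13.67 in knockout saline lungs, 11.09 to 11.65 in wild type bleomycin lungs and 12.93 to 13.46 in wild type saline lungs. The 3 knockout bleomycin arrays have the same order for these markers as for Cox7a1 and Cox6a2. In the other groups the order was shared by Cox7a1 in wild type bleomycin lungs and by Cox6a2 in wild type saline lungs, and it differed for both genes in knockout saline lungs, for Cox6a2 in wild type bleomycin lungs and for Cox7a1 in wild type saline lungs. The match of Cox6a2 in wild type saline lungs holds for the summed signal only. By mean log2 value the markers had 8.581, 8.578 and 9.133 there, another order. Knockout bleomycin replicate 1 lay within the wild type bleomycin range for the cardiac markers (mean log2 value 6.68, against 6.66 to 7.31), but above that range for Cox7a1 (5.44, against 4.57 to 5.16) and Cox6a2 (8.33, against 7.34 to 7.82). No marker list member is listed at 0, since the deposited log2 values have no zero.
Acta1, the defining marker of skeletal muscle, was dim (mean 5.30) and differed by +0.06 in each genotype, neither called. Of the 12 skeletal markers, 0 were called in knockout lungs, and in wild type lungs Pvalb rose (+0.34) and Ckm, which heart also expresses, fell (-1.46), and their summed signal lay between 8.0 and 8.44 on all arrays. The signal of fat markers varied between arrays. The summed signal of 6 adipocyte markers was 9.09 to 10.59 in knockout bleomycin lungs, 9.88 to 10.96 in knockout saline lungs, 9.04 to 9.26 in wild type bleomycin lungs and 9.49 to 10.31 in wild type saline lungs, and 0 of 6 fell in knockout and 2 in wild type lungs. Adipoq differed by -2.62 in knockout and -0.88 in wild type lungs and Ucp1, the defining marker of brown fat, by -2.16 in knockout and -0.05 in wild type lungs, none called. Summed over 4 brown fat markers, the signal was 7.20 to 8.25 in knockout bleomycin lungs and 10.39, 8.87 and 8.41 in knockout saline lungs. It was 6.60 to 7.11 in wild type bleomycin lungs and 7.99 to 8.23 in wild type saline lungs. Cox8b alone had 5.58 to 6.08 in wild type bleomycin lungs and 7.63 to 7.87 in wild type saline lungs, a large part of this sum. Of these 4 markers only Cox8b, which is also a muscle form, was called, and it fell in both genotypes. The others differed in wild type lungs by -0.05 (Ucp1), -0.55 (Cidea) and -0.01 (Elovl3).
The part of heart muscle or fat in the tissue taken was not tested as a source of the Cox6a2 and Cox7a1 differences, and in whole-lung RNA fewer cells of a type and less RNA per cell cannot be told apart.

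**Figure D5:**
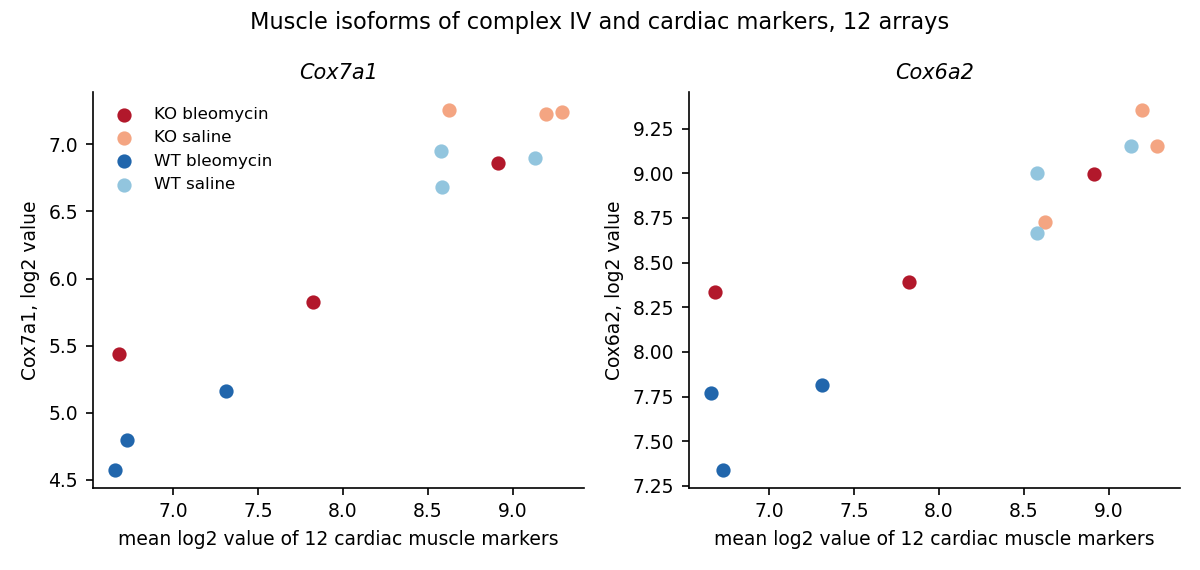
Log2 value of Cox7a1 and Cox6a2 (y axes) against the mean log2 value of 12 cardiac muscle markers (x axis) on each of the 12 arrays, coloured by group. The wild type bleomycin arrays are lowest for both isoforms, and knockout bleomycin replicate 1, as low in cardiac markers, lies above them.

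Markers of other lung cell types changed too. Over all genes, 3.26% were called in knockout lungs (1.98% as higher and 1.29% as lower). In wild type lungs 27.7% were called (13.3% as higher and 14.4% as lower). Of 9 macrophage markers, 7 rose in knockout and 8 in wild type lungs, with Cd68 at +1.14 in knockout and +2.16 in wild type lungs. In knockout lungs 0 of 8 ciliated cell, 0 of 5 club cell, 0 of 5 alveolar type 2 and 3 of 6 endothelial markers fell, and in wild type lungs these counts were 6, 4, 4 and 5. The difference between responses, knockout minus wild type, was called as lower for 2 macrophage markers (limma, against 5.02% of all genes called). It was called as higher for 2 ciliated cell, 1 club cell, 1 alveolar type 2 and 0 endothelial markers. Whether the mixture of cells itself changed was not tested, nor was its part in the small changes of the members.

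Genes around the chain that the symbol rule leaves out were also read. Against the counts that follow stand the shares of all genes, 3.26% called in knockout and 27.7% in wild type lungs (14.4% lower). Of 6 other subunits and electron carriers, Cox8b, the muscle and brown fat form of the complex IV subunit VIII, fell in both genotypes, with log2 differences of -1.55 in knockout lungs (limma, adjusted p = 0.0178) and -1.97 in wild type lungs (adjusted p = 0.000429). It had 6.61, 6.68 and 7.81 in knockout bleomycin lungs, 9.24, 8.39 and 8.13 in knockout saline lungs, 5.58, 5.59 and 6.08 in wild type bleomycin lungs and 7.67, 7.63 and 7.87 in wild type saline lungs. Bleomycin and saline arrays do not overlap in either genotype. The difference of knockout from wild type lungs in Cox8b was +1.29 after bleomycin (limma, adjusted p = 0.0138, called) and +0.87 after saline (limma, adjusted p = 0.333, not called). Its widely expressed form Cox8a differed by +0.10 in knockout and +0.06 in wild type lungs, cytochrome c (Cycs) by +0.01 in knockout and +0.14 in wild type lungs, and cytochrome c1 (Cyc1) by -0.01 in knockout and +0.10 in wild type lungs. None of these was called. Nnt, the proton-driven transhydrogenase that makes mitochondrial NADPH and is inactivated in some C57BL/6 substrains, was lower in knockout than in wild type lungs, by -1.10 after bleomycin (limma, adjusted p = 0.000119) and by -1.59 after saline (adjusted p = 4.17e-05).

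Of 36 assembly factors outside the symbol rule, 0 rose and 1 fell in knockout lungs, and 1 rose and 5 fell in wild type lungs. Those with the smallest p in wild type lungs were Sco2, a copper carrier for complex IV (-0.69, limma, adjusted p = 0.000803), Uqcc1, for complex III (-0.44, adjusted p = 0.00205) and Surf1, for complex IV (-0.47, adjusted p = 0.0144). In knockout lungs Atpaf1, a chaperone of the F1 part of complex V, was lower by -0.49 (adjusted p = 0.0172). Timmdc1, for complex I, was higher in knockout than in wild type lungs by +1.03 after bleomycin and +0.99 after saline (adjusted p = 0.000137 and 0.00206).
Of 76 mitochondrial ribosomal proteins, which make the chain subunits encoded by mitochondrial DNA, 1 rose in knockout lungs (Mrpl20, +0.30, limma, adjusted p = 0.0426), and 4 rose and 2 fell in wild type lungs, with Mrpl20 at +0.40 (adjusted p = 0.00119). Of 24 regulators of mitochondrial biogenesis, Pprc1, a coactivator related to PGC-1, rose (+0.49) and Polg2 fell (-0.39) in knockout lungs, and 2 rose and 5 fell in wild type lungs. Polg2, the accessory subunit of the mitochondrial DNA polymerase (-0.68), Ppara, a receptor that drives fatty acid oxidation (-0.82), and Polrmt, the mitochondrial RNA polymerase (-0.35), had the smallest p there (adjusted p = 0.000227, 0.000305 and 0.00547).

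Of 18 genes of fatty acid beta-oxidation, 0 were called in knockout lungs, and 0 rose and 6 fell in wild type lungs. The falls included Eci1 (-0.53), Acaa2 (-0.57) and Hadh (-0.43), which shorten fatty acids to feed the chain with NADH and FADH2 (limma, adjusted p = 0.00167, 0.00303 and 0.00495). Of 22 genes of the citric acid cycle and pyruvate dehydrogenase, 0 were called in knockout lungs, and 1 rose and 2 fell in wild type lungs, with the kinases Pdk2 at -0.61 and Pdk3 at +0.49 (adjusted p = 0.000243 and 0.00128). Of 10 carriers and kinases that move adenine nucleotides, phosphate and protons, 0 were called in knockout lungs. Ckmt2, the muscle form of mitochondrial creatine kinase, fell in wild type lungs (-2.61), while Ckmt1, the widely expressed form (+0.71), and Vdac3, an outer membrane channel (+0.21), rose (adjusted p = 0.00145, 0.00882 and 0.0408). Of 12 genes of coenzyme Q synthesis, 1 rose and 1 fell in knockout lungs, and 1 rose and 2 fell in wild type lungs. Of 11 genes of mitochondrial dynamics and mitophagy, 0 were called in knockout lungs and 2 fell in wild type lungs, the mitophagy kinase Pink1 (-0.50, adjusted p = 0.000489) and the fission adaptor Mff (-0.47, adjusted p = 0.00571).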

How the data were processed

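Whole-lung RNA was measured on 12 arrays. The deposited table holds log2 values, 1 per probe set and array, that the authors made with affy and RMA (background correction, quantile normalization and a summary over probes, as RMA is built); limma is also named, all per the submitters' processing notes and without versions. RMA makes array distributions alike, so a shift shared by all genes cannot be seen. The number of arrays, 3 per group, limits the precision.

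Of 45101 probe sets, 34958 are annotated with 1 gene, 932 with more than 1 and 9211 with no gene; the first kind covers 18194 genes, each read from its brightest probe set. All 87 member symbols matched the gene table by Entrez identifier. The 12 arrays entered 1 fit with a mean per group (limma 3.58.1, statmod 1.5.0, R 4.3.3; eBayes, no trend; degrees of freedom 8 residual, 4.86 prior). Calls required p under 0.05 after Benjamini-Hochberg adjustment over all genes, with no fold minimum; adjusted p-values of single probe sets are over all of these. Lists are described by counts, with no test. The NRF-1 and MEF2 motifs were put in these shorter forms after longer forms had been searched. Figures used matplotlib 3.10.9 (Python 3.11.15). The procedure was tested on simulated data.

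Members and lists were chosen with earlier results of these data known. Named were the complex IV isoforms and partners, Sdh subunits, core complex I, complex III and F1 subunits, up to 8 called members per direction and comparison, and up to 3 called genes of each other list. Uqcrq, Ndufaf5 and Ndufaf6, some further members and the Cox8 forms were named after their values were seen. Alternatives were a minimum mean of 5, array medians subtracted, the mean of all probe sets, eBayes with trend and robust, array weights, only the groups compared, the replicate number as a block and each array left out. Same-numbered arrays of different groups did not deviate together (correlations of -0.30 to 0.20 over 18 pairs), so the numbers were not taken to pair the samples.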

Additional observations from a re-analysis of the deposited data

How the results depend on the processing

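No called gene changed direction under these alternatives, while some complex means, which were not tested, changed sign. Of 15 members called after bleomycin in wild type lungs, Cox6a2, Cox7a1, Ndufaf3 and Ndufb1 kept their call under all 19 alternatives. With only the compared groups in the fit 5 members were called, and 7 to 15 with an array left out (8, 8 and 7 without wild type bleomycin replicates 1, 2 and 3). Other settings added calls in this comparison. Array weights added Atp5mpl, Cox5a, Ndufa4l2, Ndufa8, Ndufb6, Ndufs8 and Uqcrq as higher and Ndufaf8 as lower, and lost Ndufa6 and Ndufaf2. The mean of all probe sets added Atp5pb and Cox5a as higher and Ndufaf8 and Sdha as lower, and lost Atp5g2, Ndufs4, Ndufv2 and Sdhc. In knockout lungs 0 were called with only the compared groups and 0 to 1 with an array left out, against 1. The difference between responses called 0 members, and 1 (Cox6a1) with a minimum mean of 5, with trend and robust, or with array weights, and 0 to 1 with an array left out. Between genotypes after saline 0 were called, 2 with array weights (Ndufaf4 and Ndufs1) and 0 to 0 with an array left out. After bleomycin 3 were called, and 3 to 6 with an array left out (6 without wild type saline replicate 2). The bleomycin average called 7, 11 with the mean of all probe sets, 16 with array weights and 5 to 11 with an array left out; the knockout average called 3, and 1 to 4 with an array left out. With the replicate number as a block, 2 were called in knockout lungs (Cox7a1 and Cox6a2) and 1 for the difference between responses (Cox6a2); 2 of 12 arrays were most like the array of their own number in another group, so the pairing rests on the number alone. As medians over members, complex I differed by 0.079 between knockout and wild type bleomycin lungs (mean -0.0065), and complex IV after bleomycin by 0.0297 in knockout lungs (mean -0.102) and -0.087 in wild type lungs (mean -0.183). Without Cox6a2 and Cox7a1 the complex IV mean differed by 0.0048 in knockout and 0.0267 in wild type lungs, and by -0.0985 between genotypes after bleomycin (0.047 with them). Where fewer arrays or groups entered, fewer degrees of freedom remained; otherwise the cause was not tested. Low signal limits what Cox7b2 and Ndufb4 can show.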
